A study of Arabidopsis thaliana with 2 samples.

Results

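The genes described here are the autophagy genes ATG3 and ATG8 of Arabidopsis thaliana in dark-grown seedlings given red light. They were chosen by name: a gene counted when a probe set of the array named it alone and its main symbol was ATG or APG followed by a number and an optional letter. This gave 10 genes of 13356 with a probe set naming them alone. These were ATG3 (AT5G61500) and 9 genes of the ATG8 family, ATG8A (AT4G21980), ATG8B (AT4G04620), ATG8C (AT1G62040), ATG8D (AT2G05630), ATG8E (AT2G45170), ATG8F (AT4G16520), ATG8G (AT3G60640), ATG8H (AT3G06420) and ATG8I (AT3G15580). The chlorophyll synthase gene, which has ATG4 as a synonym, was not counted. In the gene table ATG8A has the symbol APG8A, and ATG8I has the symbol APG8H with ATG8I as a synonym. The rule reached APG8H, which is not the same gene as ATG8H.

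Whole seedlings of the Landsberg erecta accession were grown in darkness at 23 °C for 7 days and then received 1 h of red light or stayed dark for that hour. The red light passed a filter with its transmission maximum at 630 nm, at about 10 µmol per square metre and second. Before that, the seeds of both groups had spent 2 days in the cold and dark and 2 h under white light. The medium contained sucrose, in an amount that the sample descriptions do not state alike. Each group was a single pool of 5 seedlings on 1 array, so there are no replicates, no test and no error over samples, and every difference is described by its size alone. Pool, array and treatment cannot be told apart. The amount of total RNA was 20 ng for each group.

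Autophagy carries cytoplasm to the vacuole for breakdown inside a double membrane that closes around it. The membrane carries ATG8, a small ubiquitin-like protein that is joined to the lipid phosphatidylethanolamine. The protease ATG4 trims ATG8, the activating enzyme ATG7 takes it up, and the conjugating enzyme ATG3 passes it to the lipid. In Arabidopsis ATG8 is encoded by a gene family. ATG8H and ATG8I form a branch of their own whose proteins already end in the glycine that is joined to the lipid, whereas the products of ATG8A to ATG8G need trimming. Autophagy recycles cell material in plants short of carbon, and autophagy mutants of Arabidopsis survive prolonged darkness poorly. The kinase SnRK1 promotes it and the kinase TOR restrains it.

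All 10 genes gave clear signals in etiolated seedlings. Signals are the authors' MAS5 intensities, a linear measure of a probe set's brightness in arbitrary units. The median over the probe sets was 191 on the dark array and 203 on the red light array. The highest of 27 control probe sets for bacterial transcripts, taken here as a measure of background, reached 20.5 after red light and 11.5 in the dark. All 10 genes lay above that on both arrays. All 10 also counted as measured, which required a mean log2 signal at or above the 40th percentile of the probe sets, a signal of 102. In all, 7282 genes did so. The 6 genes chosen as markers of the whole seedling were measured too, with signals of at least 513.7. They stood for root, etioplast, reserve breakdown, elongating hypocotyl and light-exposed cotyledon, and the last does not mark darkness. Each autophagy gene rested on 1 probe set, and none of these carried the suffixes that mark a probe set able to bind several transcripts. The probe sequences were not used here, so sharing of signal between the similar ATG8 genes was not tested. Signals of different probe sets depend on their probes, so the genes are not ranked by level.

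Every one of the 10 genes had a lower signal after red light than in the dark, and every difference was small. None was 2-fold apart. Of all measured genes 4.82% were higher after red light by 2-fold or more and 2.44% were lower by as much. The log2 ratios of red light over dark ran from -0.47 for ATG3 to -0.032 for ATG8H, with a median of -0.18. Over all measured genes the median ratio was 0.0009, the quartiles were -0.29 and 0.32, and 49.9% lay below 0. The SD of the 10 ratios was 0.13, and that of all measured genes was 0.59. It was lower for bright genes, 0.45 in the brightest of 5 classes of equal size, which held 6 of the 10. In whole seedlings fewer cells using a gene and less RNA per cell cannot be told apart. The sign depends on 1 of the scalings tried. With the hybridization controls set to a ratio of 0, only ATG3 of the 10 stayed below 0, and 24.2% of all measured genes did.

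**Figure D1:**
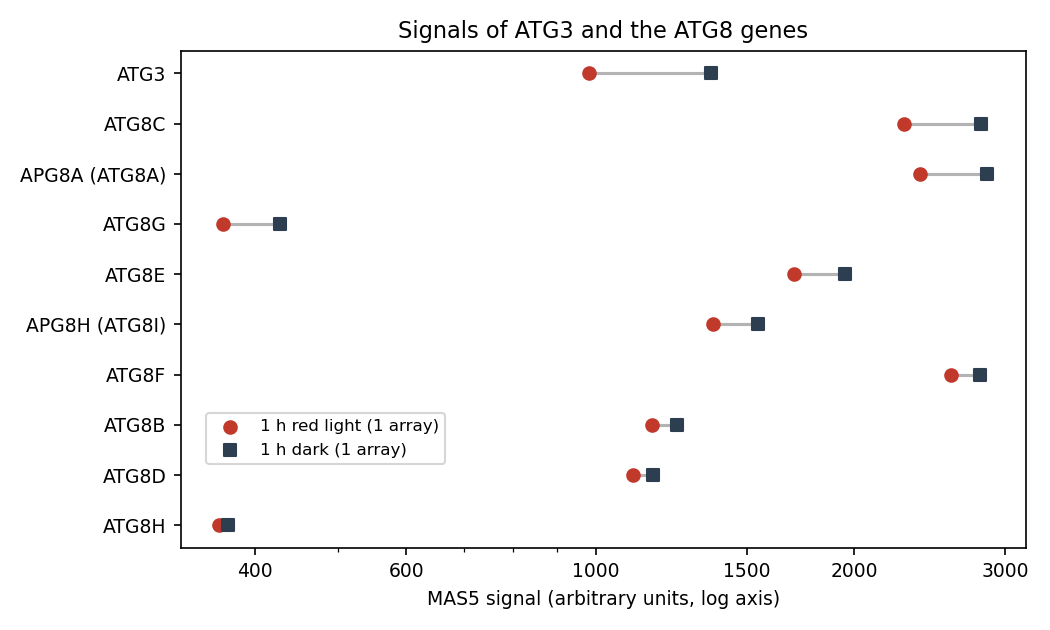
MAS5 signal (log axis, arbitrary units) of each gene on the red light array (circles) and the dark array (squares), with 1 array per group and genes in the order of their ratio. The red light signal is the lower of the pair in all 10 genes, with the widest gap for ATG3 (1362 in the dark, 980.5 with red light) and the narrowest for ATG8H (371.4 and 363.3).

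ATG3, the conjugating enzyme, had the lowest ratio of the 10. Its signal was 1362 in the dark and 980.5 after red light, 1.39-fold lower. This ratio stood at percentile 13.3 of all measured genes. The measured genes were also divided by mean signal into 5 brightness classes of equal size, from 1 for the dimmest to 5, and among the 1456 genes of its own class, 4, it stood at percentile 12.6. ATG3 was the one gene of the 10 whose ratio kept its sign under every scaling tried, from -0.51 with the median of all ratios set to 0 to -0.17 with the hybridization controls set to 0. The latter adds a constant to every ratio, so this follows from ATG3 having the lowest ratio. Of all measured genes 24.2% lay below 0 under it.

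The genes ATG8A to ATG8D form one group within the family. ATG8C had a signal of 2816 in the dark and 2289 with red light, 1.23-fold lower. APG8A (ATG8A) had 2861 in the dark and 2389 with red light, 1.20-fold lower. These were the ATG8 genes with the lowest ratios on the deposited signals, at -0.30 and -0.26. The order of the ATG8 genes changed under some of the other scalings given below. The signal of ATG8B was 1242 in the dark and 1161 with red light, a log2 ratio of -0.098. That of ATG8D was 1165 and 1103, a ratio of -0.079. The 4 ratios had a median of -0.18 and ran from -0.30 to -0.079. On the deposited signals the group thus held both ATG8 genes with the wider gaps between the arrays and ATG8 genes with nearly equal signals.

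ATG8E, ATG8F and ATG8G are the next group. ATG8E had a signal of 1952 in the dark and 1702 with red light, 1.15-fold lower. ATG8F had 2802 and 2594 in the same order, 1.08-fold lower. ATG8G had 427.8 and 366.9, 1.17-fold lower. Their log2 ratios of -0.20, -0.11 and -0.22 had a median of -0.20 and lay inside the range of the first group.

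In the branch that needs no trimming, the signal of ATG8H was 371.4 in the dark and 363.3 with red light, 1.02-fold lower. This was the smallest difference of the 10 on the deposited signals. That of APG8H (ATG8I) was 1543 and 1370, 1.13-fold lower, with a log2 ratio of -0.17. The median of both ratios was -0.10. The ranges of the 3 groups of ATG8 genes overlapped.

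The spread among probe sets of the same gene is set beside these differences as a description. Both probe sets of a pair were read on the same 2 arrays, so it holds no variation between pools or arrays. The pairs were not matched to the 10 genes for brightness. For 37 genes with a pair of measured probe sets, the log2 ratios of the pair differed by a median of 0.27, and the upper quartile of the differences was 0.66. ATG3 and ATG8C were the 2 genes of the 10 with a ratio larger in size than the median difference. None of the 10 passed 0.66. The quartiles of all measured genes, -0.29 and 0.32, are both past the median difference in size, so passing it is common. In the order of the ratios the widest step between neighbours was 0.18, from ATG3 to ATG8C. The other steps were at most 0.060. No step passed 0.27, as steps between sorted values tend to be small. Over all pairs, ATG3 differed by more than 0.27 from 6 of the 9 ATG8 genes, from 0.28 for ATG8E to 0.44 for ATG8H. Of the 36 pairs of ATG8 genes, 0 differed by more, though ATG8C and ATG8H came close, at 0.2671 against a median difference of 0.2682. The share of such pairs over all measured genes was not computed, so these counts do not set ATG3 apart.

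Brightness moved with the ratios. The median log2 ratio went from 0.11 in brightness class 1 to -0.10 in class 5. Of the 10 autophagy genes 6 lay in class 5, in which 61.3% of all genes had a ratio below 0. ATG3 and ATG8D lay in class 4, and ATG8G and ATG8H in class 3. Over classes 3 to 5 together, which hold all 10, 54.4% of the genes had a ratio below 0. Within its own class, the ratio of ATG8G stood at percentile 27.4, that of ATG8C at 29.8 and that of APG8A at 33.4. The other ATG8 genes stood between percentiles 40.4 (ATG8E) and 50.8 (ATG8B), close to the middle of genes of like brightness. A loess correction, which removes the trend with brightness, left all 10 ratios below 0, with a median of -0.14 against -0.019 for all measured genes, of which 51.7% were below 0. With it ATG3 was still lowest, at -0.45. The lowest ATG8 gene was then ATG8G at -0.27, before ATG8C at -0.22 and APG8A at -0.18. ATG8F, not ATG8H, had the smallest difference, at -0.029.

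**Figure D2:**
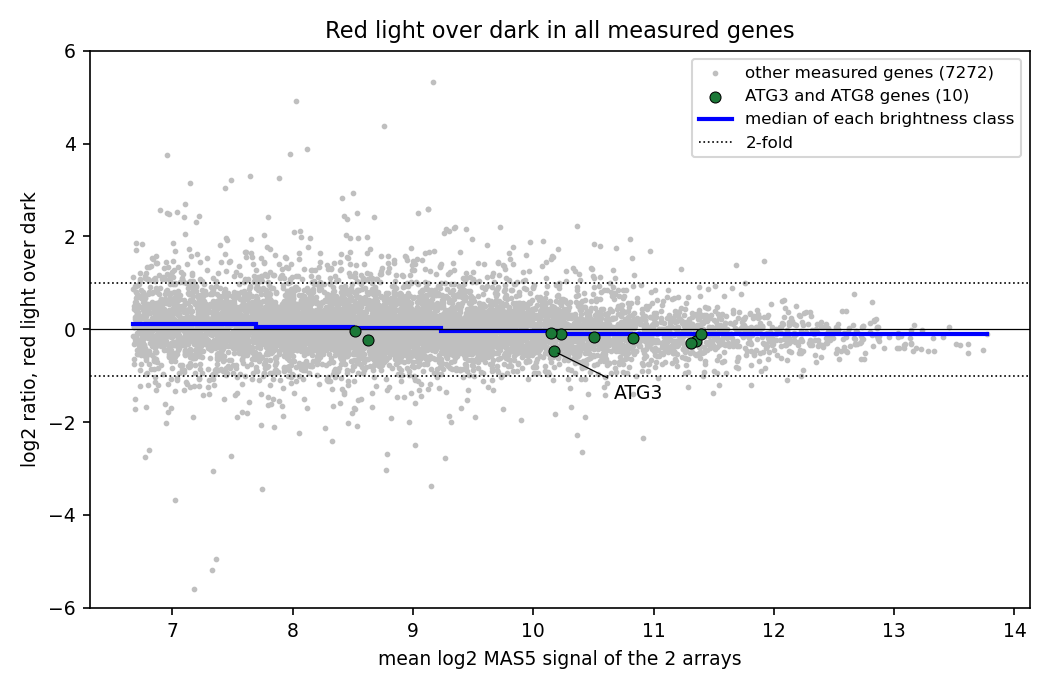
Log2 ratio of red light over dark against the mean log2 signal of both arrays for the 10 autophagy genes (green) and the other 7272 measured genes (grey), 1 point per gene, with the median ratio of each of the 5 brightness classes (blue) and 2-fold (dotted). The green points lie just below 0 inside the grey cloud, ATG3 lowest at -0.47, and the blue medians go from 0.11 on the left to -0.10 on the right.

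The sign for the ATG8 genes changed under 1 of the 4 other scalings. The deposited signals of both arrays have the same trimmed mean. The 18 hybridization controls, bacterial and phage sequences that Affymetrix protocols add to each sample before hybridization, had a median log2 ratio of -0.30 on that scale, and 17 of them were lower on the red light array. Setting these controls to 0 adds the same amount to every ratio, so each ratio between -0.30 and 0 turns positive. The median of all measured genes moved to 0.30 and all 9 ATG8 genes had a ratio above 0, from 0.0014 for ATG8C to 0.27 for ATG8H. The median of the 10 genes then was 0.12, and its distance of -0.19 to the median of all measured genes cannot change when a constant is added. Quantile normalization gave ratios from -0.49 for ATG3 to -0.054 for ATG8F, all 10 below 0, beside 53.3% of all measured genes. ATG8G was again the lowest ATG8 gene, at -0.29. With the median of all ratios set to 0 all 10 lay below 0 as well, beside 52.6% of all measured genes. The 3' to 5' ratios of the RNA controls were higher on the dark array, except in 1 of the pairs for actin. In one pair of actin control probe sets the 3' signal was 6.55 times the 5' signal after red light and 8.44 times in the dark, and in the other pair 40.1 and 35.8 times. For GAPDH the 2 pairs gave 1.60 and 2.06 after red light and 2.05 and 2.11 in the dark. For ubiquitin they gave 4.59 and 3.0 after red light and 5.36 and 3.05 in the dark. Their part in the autophagy ratios was not tested.

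**Figure D3:**
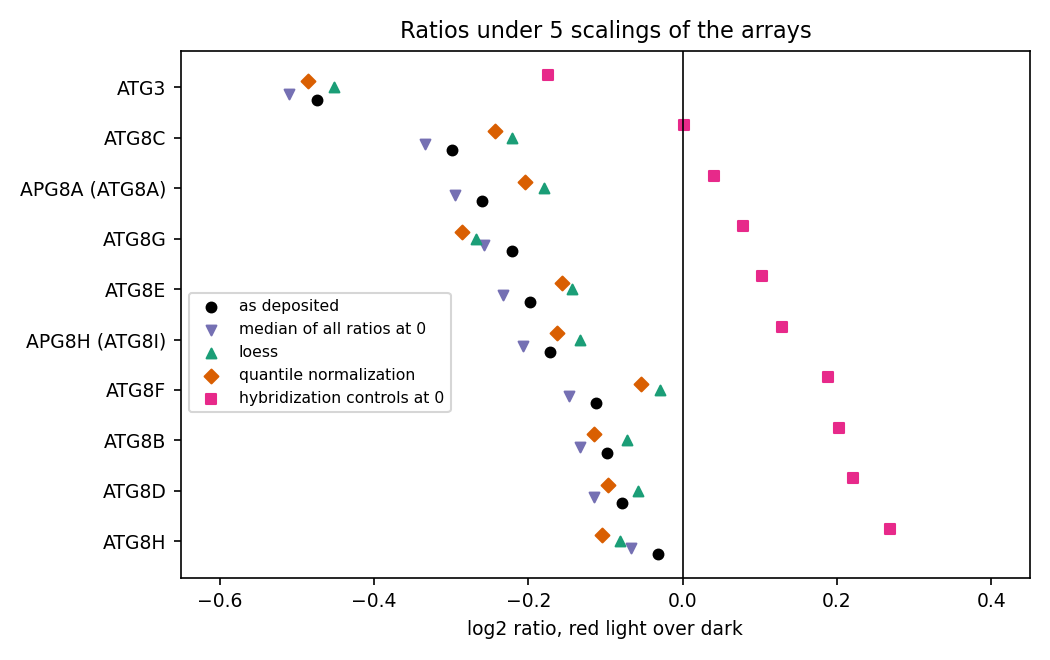
Log2 ratio of red light over dark for each gene under 5 scalings of the same 2 arrays, 1 symbol per scaling. Under 4 of them all 10 genes lie below 0, and with the hybridization controls at 0 only ATG3 does, at -0.17.

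Other genes of the pathway came from lists drawn up by locus. Of 42 genes on the list of core autophagy proteins, 20 had a probe set naming them alone and 18 were measured, the 10 genes above and 8 others. Of the 8 others, 7 had a ratio below 0 and 1 above, with a median of -0.11, beside 49.9% below 0 and a median of 0.0009 over all measured genes. None of the 8 was 2-fold apart, which is close to the shares of all measured genes, 4.82% higher and 2.44% lower by that much. With loess the median of the 8 was -0.19 and with quantile normalization -0.21. The gene table gives no autophagy name for most of them, so they appear by locus. AT2G32760 had a signal of 117.6 in the dark and 199.4 with red light, 1.70-fold higher. With the hybridization controls at 0 it passed 2-fold, at a log2 ratio of 1.06. AT2G37840 had signals of 959.6 and 648.6 in the same order, 1.48-fold lower, on its 1 measured probe set. Its other probe set was too dim to count, at 88.4 and 96.2, and had the opposite direction. AT5G66930, for which the table gives the synonym ATG101, a subunit of the kinase complex that starts autophagy, had 175.1 and 161.0, a log2 ratio of -0.12. It was picked for its name after its value was seen. AT1G49180 (65.3 and 71.8) and AT3G18770 (32.5 and 44.8) did not count as measured. The remaining 22 genes on this list, among them ATG5, ATG7 and ATG9, are not analysed here.

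Of 17 listed receptors and regulators of autophagy 4 were measured. Their signals are given with the dark array first. AKINBETA1, a beta subunit of SnRK1, had a signal of 2408 in the dark and 1746 with red light, a log2 ratio of -0.46, nearly that of ATG3. AT4G16360, which the table names KINbeta2, another SnRK1 beta subunit, had 1009 and 905.0, a ratio of -0.16. RAPTOR1, the partner of TOR that binds its substrates, had 252.3 and 202.9, a ratio of -0.31. Its relative RAPTOR2 had 88.6 and 67.8 and did not count as measured. Of the 16 measured list genes outside the 10, 1 was 2-fold apart, near the shares of 4.82% higher and 2.44% lower over all measured genes. This was AT4G34660, with 133.4 in the dark and 284.6 with red light, 2.13-fold higher. It was just under 2-fold with quantile normalization, at a log2 ratio of 0.99, and with a pseudocount, at 0.98. The 4 genes had a median of -0.24, with 3 below 0 and 1 above. Over all measured genes 49.9% lay below 0, with a median of 0.0009. The hybridization control scale turned KINbeta2 to 0.14 and left AKINBETA1 at -0.16 and RAPTOR1 at -0.014. On that scale 24.2% of all measured genes lay below 0.

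Of 15 genes listed for fusion with the vacuole, where autophagic bodies are broken down, and for proteolysis there, 3 were measured. GAMMA-VPE, a vacuolar processing enzyme that matures vacuolar proteins, had a signal of 4017 in the dark and 3202 with red light, a log2 ratio of -0.33. BETA-VPE, known for processing seed storage proteins, had 648.1 and 507.6, a ratio of -0.35. AT1G12470 had 508.8 and 568.8, a ratio of 0.16. ALPHA-VPE, at 56.8 and 54.3, did not count as measured. The median of the 3 was -0.33, and -0.20 with no filter, which adds ALPHA-VPE. None of the 3 was 2-fold apart, beside 4.82% higher and 2.44% lower over all measured genes. On the hybridization control scale both enzymes stayed below 0, at -0.027 and -0.052, as did 24.2% of all measured genes. Of 13 genes listed for other ubiquitin-like conjugation systems SAE1A was measured. It is a subunit of the enzyme that activates SUMO, and its signals of 1031 and 1022 gave a ratio of -0.013.

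**Figure D4:**
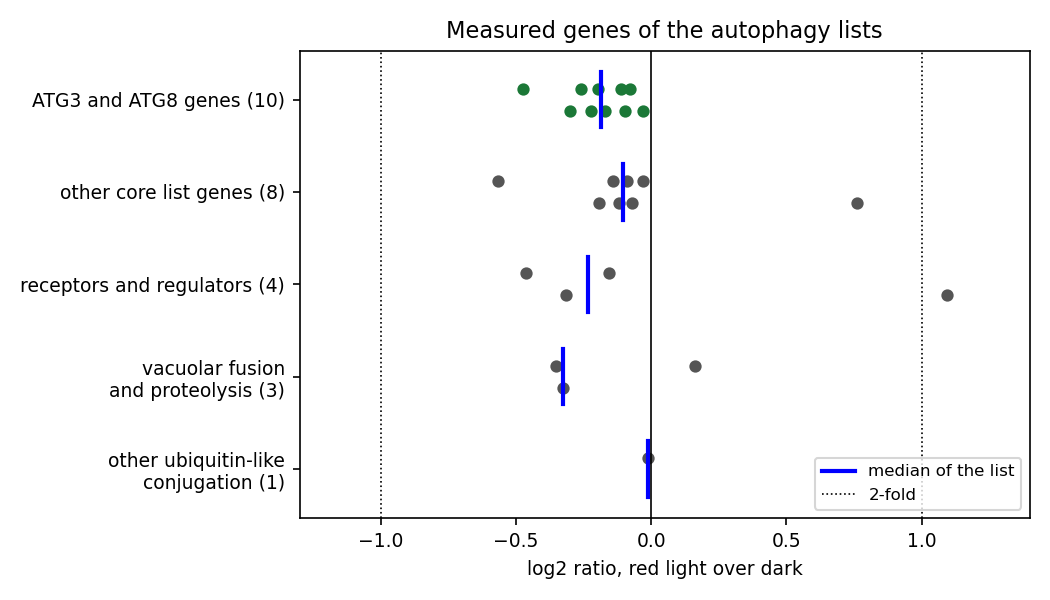
Log2 ratio of red light over dark for the measured genes of each list, 1 point per gene, with the list median (blue) and 2-fold (dotted). The 10 autophagy genes (green) lie between -0.47 and -0.032, and AT4G34660 among the regulators, at 1.09, is the point past 2-fold.

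The genes most like each of the 10 over both arrays were found by the distance between their log2 signals, among the 1075 other measured genes with a symbol. Such likeness rests on 2 arrays and on the brightness of the probes as well as on the ratio. APG8A and ATG8C were each other's nearest gene, at a distance of 0.066, and MAB1, a subunit of mitochondrial pyruvate dehydrogenase, was the next for both, at 0.070 and 0.11. For ATG3 the nearest were LCB2, a subunit of the enzyme that starts sphingolipid synthesis, at 0.075, and KINESIN-13A at 0.090. LSM3B (0.017) and LCR68 (0.076) were nearest to ATG8E, and CHL (0.018) and GUT1 (0.044) to APG8H. For ATG8F they were SKU5 (0.055) and ALDH2C4 (0.12), and for ATG8G THO1 (0.052) and SEC15B (0.073). For ATG8D they were APK1A (0.058) and AGL26 (0.060), for ATG8H 5-FCL (0.051) and EULS3 (0.067), and for ATG8B ARLA1D (0.078) and TPP2 (0.089).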

How the data were processed

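Per the submitters' processing notes the authors used MAS5, version 5, and the deposited table holds its intensity for each probe set on a linear scale. Its settings are not stated in the sources used here. With 2% of probe sets trimmed at each end the mean intensity was 500.0 on both arrays, so no further scaling was applied. The number of arrays, 1 per group, limits the precision.

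Of 22810 probe sets, 13513 named 1 gene in the probe annotation, 503 named several and were left out, 64 were controls and 8730 are unnamed here. They gave 13356 genes, of which 13286 matched a TAIR10.1 gene table, used for symbols. Coordinates are not given, as the values name no build. Intensities below 0.1 were set to 0.1 before log2. Measured probe sets of a gene were averaged, and 2-fold was the threshold.

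The genes, lists and rules were chosen with earlier results of these data known. Named were the 10 genes, the measured genes of each list (the 6 largest ratios where over 10 were measured), list genes too dim to count, and the 2 most alike genes of each of the 10. Alternatives were 4 scalings (loess span 0.3), a pseudocount of 22.1, other filters (none, the 60th percentile), probe sets and thresholds. Unscaled signals and the median, loess and quantile scalings were run on simulated data. The shifts planted there were far larger than the ratios of the 10 genes, so differences of this size were not tested. The hybridization control scale, the pseudocount and the filters were not run on those data. Python 3.11.15, numpy 2.4.6, pandas 2.3.3 and statsmodels 0.14.6 were used.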

Additional observations from a re-analysis of the deposited data

How the results depend on the processing

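No paired analysis was possible because there was 1 array for red light and 1 for dark. With the hybridization controls at 0, the median of the 10 autophagy genes was 0.12 and 1 of them lay below 0. The medians of the other core genes, the regulators and the vacuolar genes were 0.19, 0.065 and -0.027 on that scale, and 705 measured genes were at least 2-fold higher and 91 lower, so 88.6% of the called genes were higher, against 66.4% on the deposited scale. Against 351 higher and 178 lower of 7282 genes on the deposited scale, no filter gave 1823 and 1279 of 13356. Of the 4619 genes left with the filter at the 60th percentile, 172 were higher and 89 lower. Among the 7282 genes there were 925 and 652 at 1.5-fold, and 93 and 55 at 3-fold. Of the list genes outside the 10, 1 was at least 2-fold higher on the deposited scale. That count was 2 with the hybridization controls at 0 and at 1.5-fold, and 0 with quantile normalization, with the pseudocount, with the filter at the 60th percentile (where the gene does not count as measured) and at 3-fold. The median of the 10 genes stayed between -0.22 and -0.14 under the scalings other than the hybridization controls, and all 10 passed each filter. The median of the other core genes went from -0.11 to -0.19 with loess, -0.21 with quantile normalization and -0.19 with the filter at the 60th percentile, and that of the vacuolar genes from -0.33 to -0.20 with no filter. Averaging in its dim probe set, with no filter, took AT2G37840 from -0.57 to -0.22.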
